A study of Rattus norvegicus with 20 samples.

Results

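The 6 glucose transporter genes Slc2a1, Slc2a3, Slc2a4, Slc2a8, Slc2a9 and Slc2a12 were followed across 20 libraries of microdissected rat cortical collecting ducts, out of 32545 genes in the count table. The members were chosen by their gene symbols with results of these libraries already known, so their levels are given as a description of these rats. The table held all 6, and 5 of them passed the filter on low counts that left 14472 genes for testing; Slc2a3 did not pass. Each rat gave 1 library. All rats were male Sprague-Dawley rats, 5 weeks old, with a subcutaneous minipump that delivered DDAVP, an agonist of the vasopressin V2 receptor, at 5 ng per hour. The control rats received 25 mL of water per day in gelled food and the water-loaded rats 50 mL per day. Ducts were taken at day 1 (3 control and 3 water-loaded rats), day 2 (4 and 4) and day 4 (3 and 3). Each day had its own rats, so in comparisons between days, day and any batch of dissection cannot be told apart. The comparison asks how the duct changes when a water load is added under constant vasopressin action, the setting of vasopressin escape.

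Facilitative glucose transporters of the Slc2a family carry sugars and related solutes down their gradient. Slc2a1 (GLUT1) is the widely expressed transporter of basal glucose uptake and has been found in distal nephron cells. Slc2a4 (GLUT4) is the insulin-regulated transporter of muscle and fat, held in storage vesicles until it is moved to the surface. Slc2a3 (GLUT3) is the high-affinity neuronal form, Slc2a8 (GLUT8) is retained in intracellular membranes, Slc2a9 (GLUT9) mainly carries urate, and Slc2a12 (GLUT12) has been described in muscle, fat and kidney.

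Promoter sequence was taken from RefSeq (build GRCr8; the counts were made on rn6) for the pair of members that made up most of the family's transcript, Slc2a1 and Slc2a8. The RefSeq table matched 4 of the 6 members; Slc2a3 and Slc2a4 were not matched. Each stretch is 280 bases, from 250 before to 30 after the annotated start, on the gene's own strand. Capitals mark matches, on either strand, to the hypoxia response core (ACGTG or GCGTG), the CCAAT box (CCAAT) and the TATA box (TATAAA).
Slc2a1, chr5:138002272-138002551, plus strand: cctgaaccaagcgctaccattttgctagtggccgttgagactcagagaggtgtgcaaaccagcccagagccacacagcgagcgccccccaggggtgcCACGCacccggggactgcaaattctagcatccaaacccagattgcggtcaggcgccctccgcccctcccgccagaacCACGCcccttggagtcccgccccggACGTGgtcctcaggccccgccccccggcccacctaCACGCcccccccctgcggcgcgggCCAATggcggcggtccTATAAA
Slc2a8, chr3:36682105-36682384, minus strand: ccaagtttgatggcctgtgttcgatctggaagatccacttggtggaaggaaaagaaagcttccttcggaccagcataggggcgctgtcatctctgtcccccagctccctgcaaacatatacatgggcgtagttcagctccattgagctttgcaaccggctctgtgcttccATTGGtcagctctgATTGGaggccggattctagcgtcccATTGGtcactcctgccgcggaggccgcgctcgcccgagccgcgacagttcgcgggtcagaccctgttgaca
The Slc2a1 stretch held 1 ACGTG, 3 GCGTG (all read on the opposite strand), 1 CCAAT and 1 TATAAA, the last pair lying after the annotated start. The Slc2a8 stretch held 3 CCAAT matches, all on the opposite strand, and 0 of the other motifs. Of 33469 promoters of the same length, 18.2% held ACGTG, 28.3% GCGTG, 36.2% CCAAT and 13.7% TATAAA. The stretches of Slc2a9 and Slc2a12 held 0 matches to any of these letters. The GC content was 68.2% for Slc2a1, above 89.3% of promoters, and 57.5% for Slc2a8, above 67.9%. These matches describe the letters of the window and were not tied to any measured binding.

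The libraries held 33.5 to 74.9 M reads on genes (median 55.7 M), so that 3 counts, the floor used here, were worth 0.0414 to 0.0926 CPM (counts scaled to a common library size). Reads were amplified without molecular identifiers, so floors and counting intervals cover counting error only. Markers of the labelled segment were abundant: 9 principal cell genes summed to 14508 to 71210 CPM and 8 intercalated cell genes to 7381 to 15147 CPM. Detected genes were fewest in day 1 control 1 (9576) and in day 1 water-loaded 2 (9889), at 10 or more counts, against a median of 11862. Summed smooth muscle markers reached 4336 CPM in day 1 control 1 and at most 18.5 CPM in the other libraries, and summed proximal tubule markers reached 8420 CPM in day 1 water-loaded 2. Summed distal convoluted tubule markers had a median of 784 CPM. They reached 12940 CPM in day 1 water-loaded 2, 6408 CPM in day 1 control 3 and 5631 CPM in day 2 water-loaded 4. The part of these cells in the Slc2a1 values was not tested. The members' day 1 differences are given with and without day 1 control 1, day 1 water-loaded 2 or both. In bulk ducts, fewer cells of a type and less RNA per cell cannot be told apart.

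Compared per length, in the deposited FPKM (counts scaled to gene length and library size), Slc2a1 was the main family transcript, with a mean of 103 ± 46.6 FPKM (SD, n = 20; range 29.9 to 195). It stood above 92.5% of the genes tested. Slc2a8 followed at 26.1 ± 9.49 FPKM (range 10.05 to 44.9). Slc2a4 averaged 3.50 ± 8.24 FPKM (median 1.38, range 0 to 37.5) and Slc2a12 averaged 3.01 ± 1.96 FPKM (median 2.62, range 0.0177 to 6.52). Slc2a12 was above Slc2a4 in 15 of 20 libraries. The order of their means follows from day 1 control 1, where Slc2a4 stood at 37.5 FPKM and Slc2a12 at 6.52 FPKM. Slc2a9 averaged 0.302 FPKM and was at or under 3 counts in 14 libraries. Slc2a3 had 1 count in day 2 control 3, 1 count in day 4 control 2 and 0 in the other 18 libraries, which puts it under the floor in all 20.

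Averaged over the 20 libraries, the 6 family genes outside the members were lower than Slc2a12; in day 1 water-loaded rats Slc2a6 averaged 1.07 FPKM and Slc2a12 0.412 FPKM. Slc2a6, a lysosomal family member, averaged 1.25 FPKM, and the next, Slc2a2 (GLUT2, the transporter of liver and proximal tubule), averaged 0.0625 FPKM and exceeded 3 counts in 1 library. Slc2a13, Slc2a5, Slc2a10 and Slc2a7 averaged at most 0.0540 FPKM. These 6 were listed by name because they complete the family. Slc2a1 made up 25.1% to 85.1% of the summed FPKM of the 12 family genes (median 74.7%) and Slc2a8 10.9% to 37.7% (median 19.3%). Slc2a1 exceeded Slc2a8 in 19 of 20 libraries; the exception was day 1 control 1, at 29.9 against 44.9 FPKM.

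**Figure D1:**
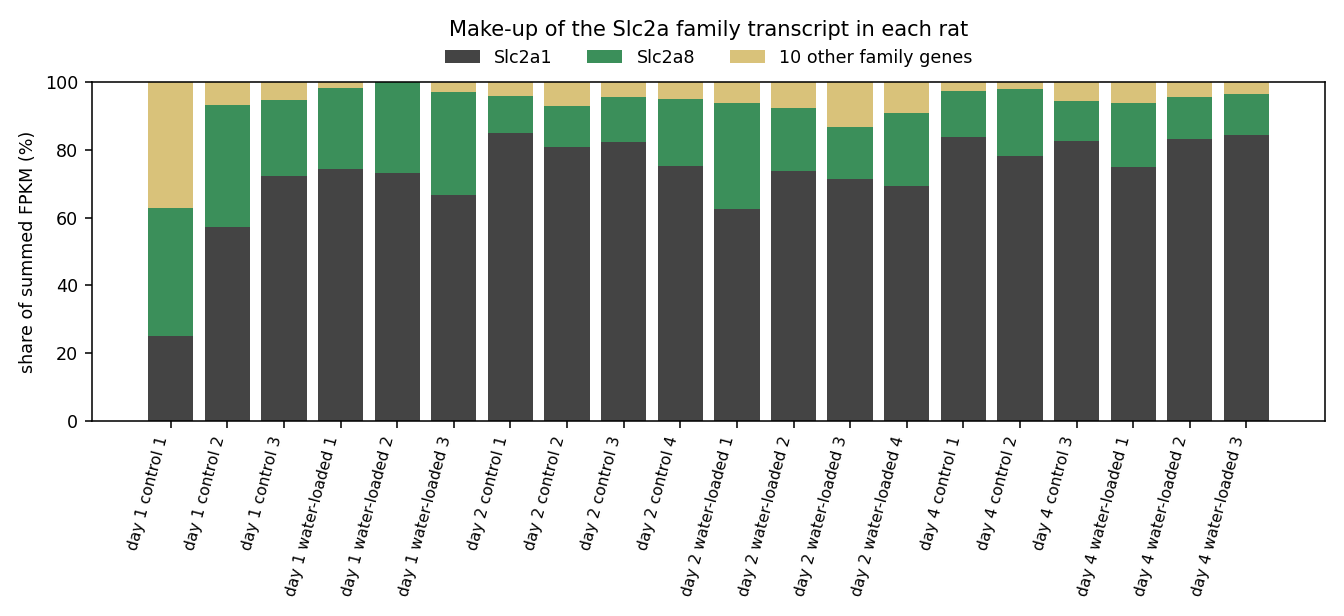
Share of the summed FPKM of 12 Slc2a genes (percent, vertical axis) held by Slc2a1, Slc2a8 and the 10 other genes in each of the 20 rats (horizontal axis). Slc2a1 holds 25.1% in day 1 control 1 and up to 85.1% elsewhere; bars are single libraries, with no error.

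Slc2a1 (ENSRNOG00000007284) was read in every library, with its lowest values in water-loaded rats of day 2. Its levels, in CPM scaled by edgeR's TMM factors, were 93.7, 139 and 191 in day 1 control rats and 187, 349 and 128 in day 1 water-loaded rats, in replicate order. At day 2 they were 252, 279, 325 and 151 in control rats and 77.9, 171, 81.9 and 93.3 in water-loaded rats. At day 4 they were 268, 254 and 231 in control rats and 198, 276 and 330 in water-loaded rats. At day 2, 3 of 4 water-loaded rats lay below every control rat, and water-loaded rat 2 lay above control rat 4, so that the groups overlapped. Between rats of the same number, Slc2a1 was lower under water load in 4 of 4 pairs at day 2. Such pairs are read from correlated deviations of 0.147 to 0.236, as the labels do not say how the numbers were given. The share of all genes with the same direction in every pair is not given here. At days 1 and 4 the groups overlapped as well.

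At day 2 the fitted difference of Slc2a1, water load minus control, was -1.25 on the log2 scale (SE 0.35, 95% interval -1.97 to -0.52), from a mean of 252 ± 73.3 to 106 ± 44.0 CPM (SD, n = 4 each). That is 2.37-fold lower, with an adjusted p of 0.758 in edgeR's quasi-likelihood test, so that it was not called. With replicate numbers as a block it was -1.27 (SE 0.36) and was not called. In DESeq2 the difference was -1.23, with an adjusted p of 0.161. At day 1 the difference was 0.65 (SE 0.40, adjusted p = 0.444, edgeR), from 141 ± 48.8 to 222 ± 114 CPM (SD, n = 3 each). Without day 1 water-loaded 2 it was 0.16, and without both libraries with the fewest detected genes it was -0.06. At day 4 it was 0.09 (SE 0.39, interval -0.73 to 0.92), from 251 ± 18.9 to 268 ± 66.6 CPM.

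The average of the 3 days gave Slc2a1 a log2 difference of -0.17 (SE 0.22, interval -0.62 to 0.29, adjusted p = 0.856, edgeR). The test that the water-load difference changed between days gave Slc2a1 an adjusted p of 0.430 in edgeR (unadjusted p = 0.00496 from the same fit). Compared pairwise, the day 2 difference minus the day 1 difference was -1.90 log2 units (SE 0.53, adjusted p = 0.240). Ordered by mean level, the 6 groups ran from day 4 water-loaded (268 CPM), day 2 control (252) and day 4 control (251) down to day 1 water-loaded (222), then day 1 control (141), and were lowest in day 2 water-loaded rats (106). Every pair of neighbours in that order overlapped between rats. Within groups Slc2a1 had an SD of 0.49 log2 units, larger than that of 8.83% of genes tested. Among genes with a mean within 1 log2 unit of its own, the share was 45.4%.

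**Figure D2:**
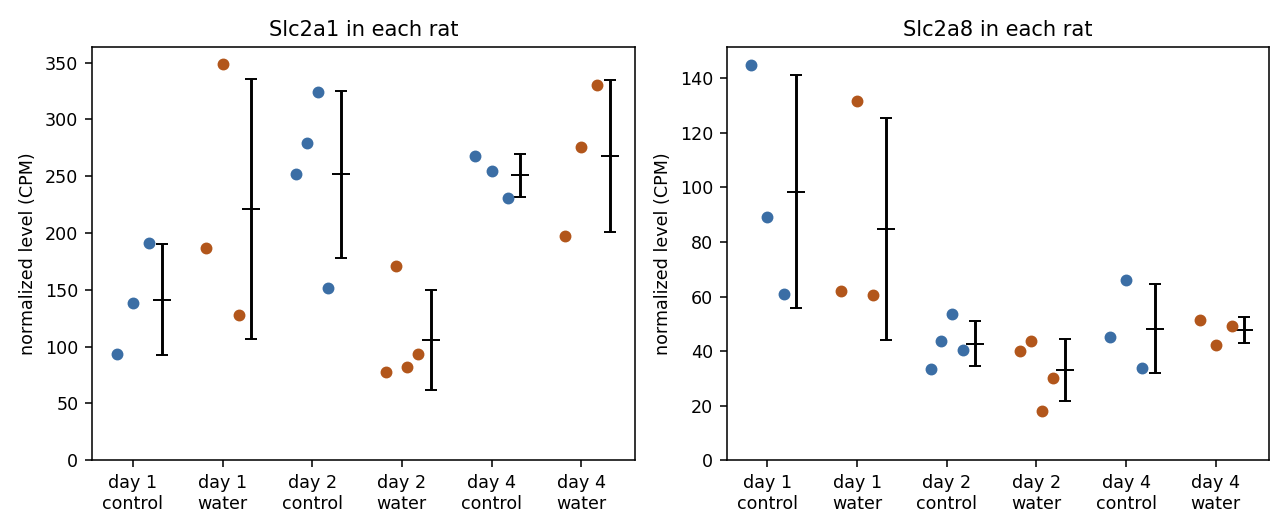
Levels of Slc2a1 (left) and Slc2a8 (right) in each rat, in TMM-normalized CPM (linear vertical axes from 0), by day and treatment (blue control, brown water-loaded); black marks are mean ± SD. For Slc2a1, 3 of 4 day 2 water-loaded rats lie below every day 2 control rat. For Slc2a8, all day 1 rats lie above all day 2 rats, and the share of all genes so separated was not computed.

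Slc2a8 (ENSRNOG00000022274), the intracellular transporter, was highest at day 1 in both treatments. Its levels in CPM were 145, 89.2 and 61.0 in day 1 control rats and 62.0, 132 and 60.4 in day 1 water-loaded rats. At day 2 they were 33.3, 43.6, 53.5 and 40.6 in control rats and 40.0, 43.8, 18.2 and 30.1 in water-loaded rats. At day 4 they were 45.1, 66.1 and 33.7 in control rats and 51.5, 42.2 and 49.3 in water-loaded rats. The treatments overlapped at each day, while every day 1 rat lay above every day 2 rat. The share of all genes tested that separate these days in the same way was not computed.

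The water-load differences of Slc2a8 were small against their errors: -0.22 (SE 0.45) at day 1 (0.17 without day 1 control 1, -0.68 without day 1 water-loaded 2), -0.37 (SE 0.39) at day 2, -0.02 (SE 0.45) at day 4 and -0.20 (SE 0.25) over the average of days. Their smallest adjusted p was 0.840 in edgeR. From day 1 to day 2 the control mean went from 98.4 ± 42.8 (SD, n = 3) to 42.7 ± 8.34 CPM (SD, n = 4), a difference of -1.20 log2 units (SE 0.42, adjusted p = 0.139, edgeR). In water-loaded rats it went from 84.8 ± 40.8 to 33.0 ± 11.5 CPM, a difference of -1.36 (SE 0.42, adjusted p = 0.198, edgeR). Neither passed. With the pair of libraries of fewest detected genes set aside, these differences were -0.84 (SE 0.36, adjusted p = 0.303, edgeR) and -0.91 (SE 0.36, adjusted p = 0.474, edgeR). The test of all 3 days among control rats gave Slc2a8 an adjusted p of 0.154 in edgeR, and 0.450 without day 1 control 1. The ratio of Slc2a1 to Slc2a8 in FPKM averaged 1.83 ± 1.30 and 2.67 ± 0.466 at day 1 (control and water-loaded), 6.12 ± 1.65 and 3.46 ± 1.14 at day 2, and 5.71 ± 1.58 and 5.86 ± 1.65 at day 4 (SD over rats). Without the same libraries the day 1 ratios averaged 2.42 and 2.65 (2 rats each).

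Slc2a12 (ENSRNOG00000011161) was lower in every day 1 water-loaded rat than in any day 1 control rat, and the treatments overlapped at later days. Its levels were 41.7, 18.8 and 4.42 CPM in day 1 control rats and 1.19, 0.106 and 3.60 CPM in day 1 water-loaded rats. At day 2 they were 9.63, 11.9, 17.1 and 13.5 CPM in control rats and 7.34, 13.3, 20.3 and 9.29 CPM in water-loaded rats. At day 4 they were 6.93, 11.5 and 19.5 CPM against 22.1, 10.3 and 6.48 CPM. The gap at day 1 was narrow, between 3.60 CPM in a water-loaded rat and 4.42 CPM in a control rat.

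At day 1 the fitted difference of Slc2a12 was -3.73 on the log2 scale (SE 1.08, interval -5.97 to -1.48), from 21.6 ± 18.8 to 1.63 ± 1.79 CPM (SD, n = 3 each), with an adjusted p of 0.222 in edgeR. DESeq2 called it, at -3.81 with an adjusted p of 0.000632. Without day 1 control 1 the difference was -2.83, and without both libraries with the fewest detected genes -2.29. It was -0.05 (SE 0.83) at day 2, 0.04 (SE 0.96) at day 4 and -1.25 (SE 0.54, adjusted p = 0.317, edgeR) over the average of days. The test of a change of the difference between days gave an adjusted p of 0.502 in edgeR.

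**Figure D3:**
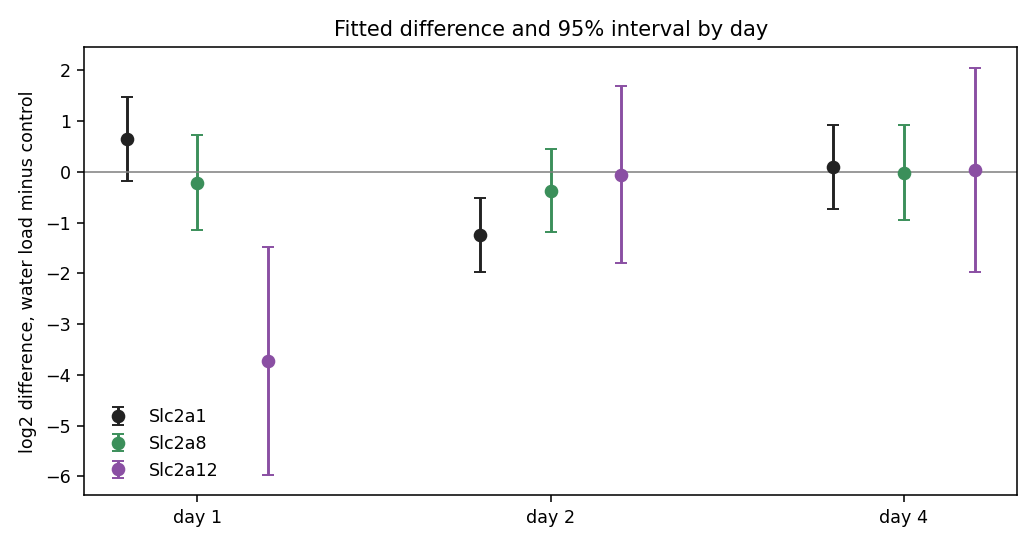
Fitted log2 difference, water load minus control (vertical axis), with 95% intervals for Slc2a1, Slc2a8 and Slc2a12 at days 1, 2 and 4. The intervals exclude 0 before adjustment for Slc2a12 at day 1 (-3.73) and for Slc2a1 at day 2 (-1.25); neither passed after adjustment.

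Slc2a4 (ENSRNOG00000017226), the insulin-regulated transporter, had opposite patterns at days 1 and 4. Its counts were 5268, 480 and 867 in day 1 control rats and 2, 0 and 1 in day 1 water-loaded rats. At day 2 they were 8, 1232, 199 and 19 in control rats and 220, 512, 218 and 201 in water-loaded rats. At day 4 they were 0, 0 and 41 in control rats and 122, 244 and 283 in water-loaded rats. Groups did not overlap at day 1, where water-loaded rats were low, nor at day 4, where they were high; at day 2 the water-loaded rats lay inside the range of the control rats.

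In CPM, the day 1 control rats stood at 146, 8.79 and 14.2. The 3 day 1 control libraries held 6615 counts together and the 3 water-loaded libraries 3, a ratio of 2008 (95% counting interval 687 to 9738) after scaling by library size. Without day 1 control 1 the ratio was 537 (183 to 2607). These counting intervals leave out the spread between rats. The adjusted p was 0.164 in edgeR, and DESeq2 called the gene with an adjusted p of 2.45e-09. At day 4 the levels were 0, 0 and 0.756 CPM in control rats against 3.00, 4.92 and 5.83 CPM in water-loaded rats. The fitted log2 difference was 4.15 (SE 1.81, 95% interval 0.35 to 7.94), with an adjusted p of 0.674 in edgeR and 0.136 in DESeq2. Leaving out 1 library gave 3.57 to 10.93, the highest without day 4 control 3, where the remaining control rats were at 0 and the fitted size is no bound. Over all rats of day 4, water-loaded libraries held 649 counts and control libraries 41. Scaled by library size, the ratio was 15.2 (95% counting interval 11.1 to 21.4). That interval leaves out the spread between rats, which the wider interval of the fit includes. With control rat 3 and its 41 counts left out, the water-loaded libraries were at least 123-fold higher than the floor of 3 counts over day 4 control rats 1 and 2 together. At day 2 the means were 5.25 ± 8.30 and 5.06 ± 2.68 CPM (SD, n = 4 each) and the log2 difference was -0.05 (SE 1.37), or 2.15 without day 2 control 2 and 1.91 with replicate numbers as a block.

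The difference of Slc2a4 between days had an adjusted p of 0.430 in edgeR (unadjusted p = 0.000295 from the same fit). Among control rats alone, Slc2a4 ran from 56.2 CPM at day 1 (11.5 CPM without day 1 control 1) to 5.25 at day 2 and 0.252 at day 4, and the test over days had an adjusted p of 0.069 in edgeR. Leaving out day 1 control 1 gave 0.299. Leaving out control rat 2 of day 2 gave 0.0369, and leaving out control rat 3 of day 4 gave 0.0345. The call thus differed with single libraries.

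**Figure D4:**
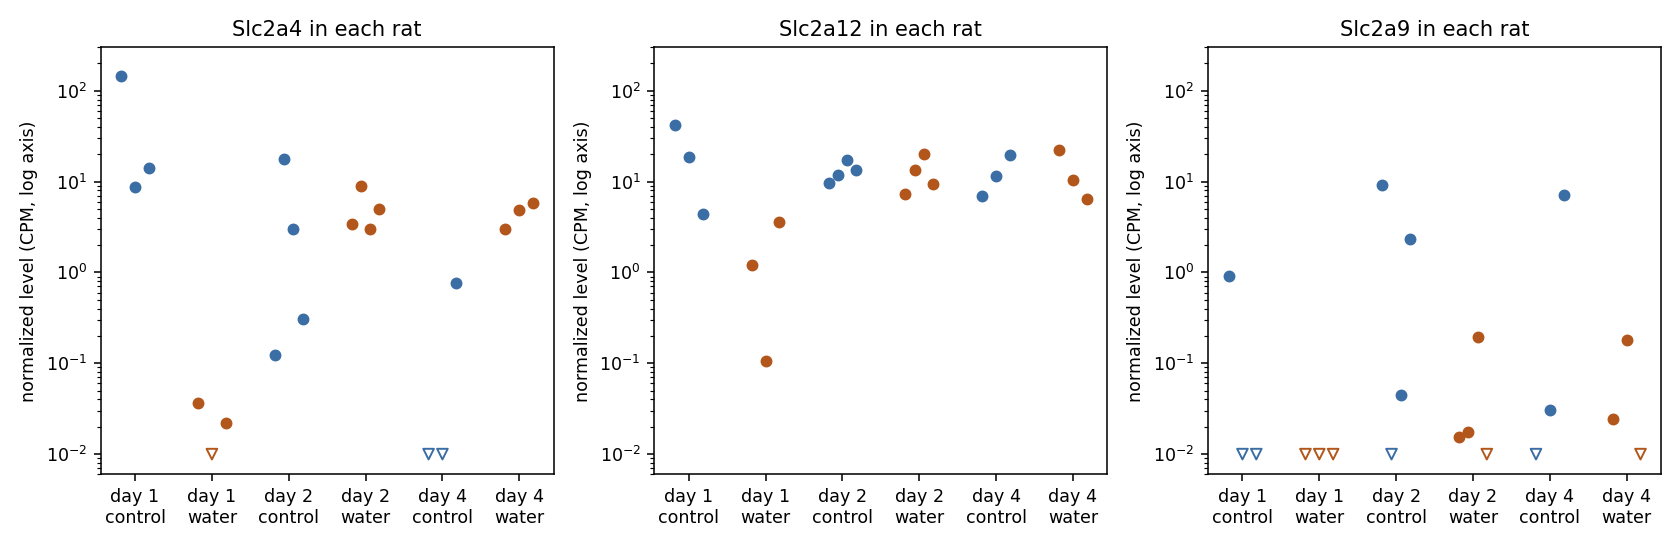
Levels of Slc2a4, Slc2a12 and Slc2a9 in each rat, in TMM-normalized CPM (log vertical axes), by day and treatment (blue control, brown water-loaded). Open triangles at the bottom are rats with 0 counts; Slc2a4 is low in all 3 day 1 water-loaded rats and high in all 3 day 4 water-loaded rats.

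Markers of cells outside the duct moved with part of this pattern. In day 1 control 1, which held 5268 of the Slc2a4 counts, the 5 smooth muscle markers summed to 4336 CPM and the 7 fibroblast and pericyte markers to 1606 CPM. In the other day 1 control rats the smooth muscle sum was at most 10.4 CPM and the fibroblast sums were 52.2 and 34.6 CPM. Slc2a4 stood at 8.79 and 14.2 CPM in these rats. Day 1 water-loaded rats had smooth muscle sums of 1.72 to 18.5 CPM and fibroblast sums of 58.3 to 95.2 CPM, above those 2 control rats, with Slc2a4 at or under 2 counts. At day 4 the fibroblast and pericyte sum was 6.61 to 9.32 CPM in control rats and 15.0 to 74.5 CPM in water-loaded rats, without overlap, in the same direction as Slc2a4; the smooth muscle sums overlapped (0.0642 to 7.90 and 1.07 to 10.1 CPM). Among control rats over days, 4 of 4 tested smooth muscle markers and 2 of 6 tested fibroblast markers were called. The share of all genes tested was 2.45%. Those control rats include day 1 control 1, without which the all-gene calls of this test fell from 355 to 43. The marker calls without it were not computed. Adipocyte markers summed to 62.9 to 322 CPM, with 1 to 3 of 6 over 3 counts in each library; Plin1 and Lep were at or under 3 counts in all 20. Skeletal muscle markers summed to 0 to 88.9 CPM, highest in day 1 water-loaded 2, and reached 40.1 CPM in control rat 2 of day 1. In each of those libraries 1 of 5 markers exceeded 3 counts, so the sum came almost wholly from 1 gene. Myh1 and Myog were at or under 3 counts in all 20. The part of these cells in the Slc2a4 values was not tested.

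**Figure D5:**
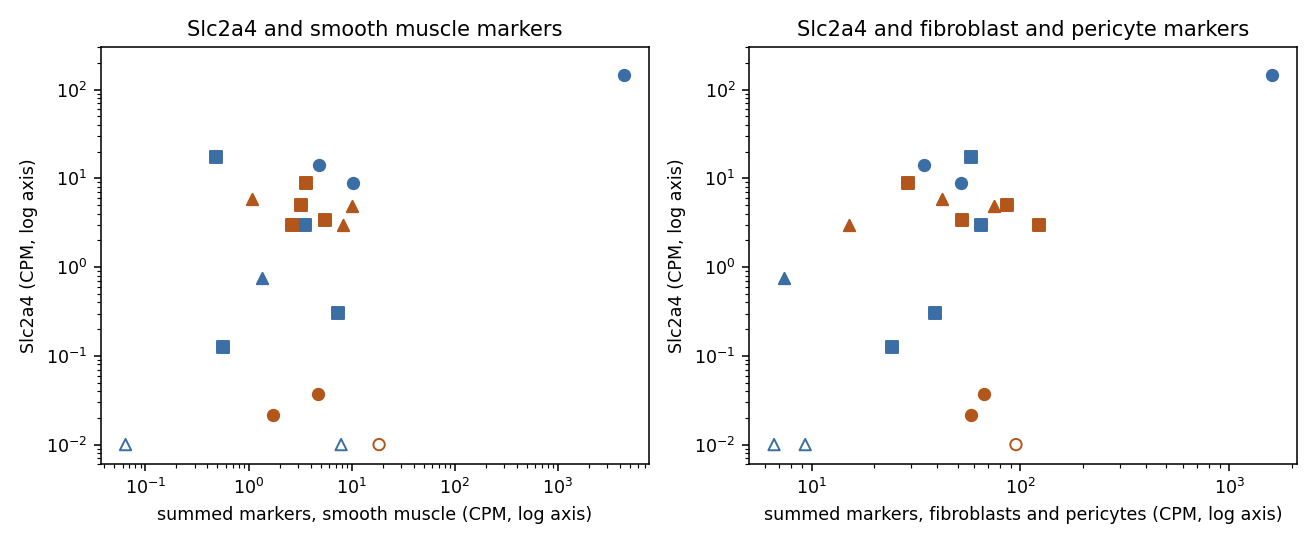
Slc2a4 level (CPM, log axis) against the summed level of smooth muscle markers (left) and of fibroblast and pericyte markers (right) in each rat (CPM, log axes); circles are day 1, squares day 2, triangles day 4, blue control, brown water-loaded, and open symbols are rats with 0 Slc2a4 counts. Day 1 control 1 stands alone at 4336 CPM of smooth muscle markers and 146 CPM of Slc2a4.

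Slc2a9 (ENSRNOG00000005302), the urate transporter, was read in few rats. Its counts were 33, 0 and 0 in day 1 control rats and 0 in all 3 day 1 water-loaded rats. At day 2 they were 592, 0, 3 and 145 in control rats and 1, 1, 14 and 0 in water-loaded rats. At day 4 they were 0, 1 and 389 in control rats and 1, 9 and 0 in water-loaded rats. It exceeded 3 counts in 4 of 10 control libraries and 2 of 10 water-loaded libraries, and the 3 highest libraries held 94.7% of its 1189 counts. The treatments overlapped at each day.

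The average over days of Slc2a9 had an adjusted p of 0.185 in edgeR, and DESeq2 called it with an adjusted p of 3.43e-07. The day 1 difference, which enters that average and which DESeq2 called as well, came from the 33 counts of day 1 control 1. Every other day 1 library had 0, so its fitted size carries no bound. Its SD within groups was 2.67 log2 units, larger than that of 92.5% of genes tested. Proximal tubule markers, 14 genes, summed to 2943 CPM in day 2 control 1, where Slc2a9 had its most counts. They summed to 73.3 CPM, the lowest of all 20 libraries, in day 4 control 3, where it had 389 counts. In day 1 water-loaded 2, where they summed to 8420 CPM, Slc2a9 had 0 counts. The part of the proximal tubule in the Slc2a9 values was not tested.

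Across the 5 members tested, 0 were called in any of the 6 tests by edgeR, at an adjusted p under 0.05. The background over 14472 genes was 0% called at day 1, 0% at day 2, 0% at day 4, 0.159% over the average of days, 0% for the difference between days and 2.45% for the days among control rats. At an unadjusted p under 0.05, the members numbered 2, 1, 1, 3, 3 and 2 of 5 in the same order, and the shares of all genes tested were 15.6%, 5.23%, 7.22%, 13.5%, 8.56% and 22.5%. DESeq2 was run for the single days and their average. It called 3 members at day 1 (Slc2a4, Slc2a9 and Slc2a12), 0 at days 2 and 4, and 1 over the average (Slc2a9). At day 1 the only counts of Slc2a9 were 33, in day 1 control 1. For all genes DESeq2 called 1132 of 13674 at day 1, 77 of 13932 at day 2, 319 of 13932 at day 4 and 714 of 13674 over the average. Rats of the treatments did not overlap for 2 of the 5 members at day 1, against 10.9% of genes, for 0 at day 2, against 4.23%, and for 1 at day 4, against 14.7%. The median log2 difference of the 5 members was -3.73 at day 1, -0.37 at day 2 and 0.04 at day 4, against 0, -0.05 and 0 over all genes tested. The day 1 median is the value of Slc2a12.

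The genes whose log2 CPM followed each member most closely over the 20 libraries were taken from 7405 genes with a mean of at least 10 CPM. For Slc2a1 they were Pou3f3 (Pearson r = 0.78, Spearman rho = 0.82), Mboat1 (0.78 and 0.74) and Clint1 (0.76 and 0.80). Without the pair of libraries farthest from the Slc2a1 median, r was 0.75, 0.80 and 0.84. For Slc2a8 they were Zfp580 (r = 0.89, rho = 0.84), Arf5 (0.88 and 0.76) and AC109096.1 (0.87 and 0.71), with r between 0.73 and 0.79 without the pair of libraries with the fewest detected genes. For Slc2a4 they were Icmt (r = 0.77, rho = 0.67), Asah1 (0.76 and 0.61) and Vim (0.75 and 0.75), the intermediate filament gene of mesenchymal cells. Without water-loaded rat 2 of day 1 and control rat 1 of day 4, these r were 0.67, 0.77 and 0.66. Slc2a4 met the mean of 10 CPM only through day 1 control 1, at 146 CPM against a median of 3.01 CPM over the 20 libraries. Its r without that library was not computed. For Slc2a12 they were Zfp395 (r = 0.90, rho = 0.64), Ccdc86 (0.88 and 0.60) and Qrsl1 (0.88 and 0.57), and r fell to between 0.56 and 0.62 without 2 day 1 water-loaded rats. These values were picked as the highest of many and share depth and library make-up, so they carry no p.

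Genes that act with the transporters were read from lists chosen by textbook role. Of the Slc2a4 storage and trafficking list, 15 of 18 genes were tested and 0 were called for water load at any day; the median log2 differences were 0.15, 0.22 and 0.10 at days 1, 2 and 4. Its most abundant members, per length, were Stx4, the surface syntaxin of vesicle fusion (101 FPKM), Tbc1d1, a Rab GTPase-activating protein (62.1), and Rab10, a Rab GTPase of storage vesicles (58.1). Vamp2, the vesicle SNARE, was called for the days among control rats (adjusted p = 0.0282, edgeR), at 218 ± 115 CPM at day 1 (n = 3), 75.4 ± 15.5 at day 2 (n = 4) and 109 ± 15.4 at day 4 (n = 3; SD). It was the 1 gene called of the 15 tested, against 2.45% of all genes tested. The Vamp2 adjusted p in edgeR was 0.152 without day 1 control 1. It was 0.0544, 0.0583 and 0.05004 on leaving out, in turn, control rat 3 of day 2 and control rats 1 and 2 of day 4.

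Of the genes known to control Slc2a4 transcription, 7 of 8 were tested, 0 were called, and the medians were -0.9997, -0.48 and -0.36. The most abundant were Thra, a thyroid hormone receptor (47.4 FPKM), Klf15, a glucocorticoid-induced factor (29.3), and Srebf1, a lipogenic factor (21.3). All 8 insulin receptor signalling genes were tested and 0 were called, with medians of 0.40, -0.90 and -0.22; the kinases Akt1 (73.1 FPKM) and Akt2 (37.5) and the PI3-kinase subunit Pik3r1 (10.8) led it. All 5 regulators of transporter amount at the membrane were tested and 0 were called, with medians of 0.02, -0.04 and -0.40. They were led by Ap2m1, a clathrin adaptor subunit (200 FPKM), Gipc1, which binds the tail of GLUT1 (154), and Txnip, which promotes GLUT1 uptake from the surface (91.2). Txnip stood at log2 differences of -0.48, -0.59 and -0.60 (SE 0.52, 0.45 and 0.52), of which 0 passed.

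Of the hypoxia-inducible list, to whose known targets Slc2a1 itself belongs, 9 of 11 genes were tested. The water load called 0 of them, with medians of -0.03, -0.04 and 0.17. The days among control rats called 2 of the 9, against 2.45% of all genes tested. Ldha, lactate dehydrogenase A and the most abundant at 963 FPKM, stood at 3334 ± 832 CPM at day 1, 1624 ± 1392 at day 2 and 289 ± 104 at day 4 (adjusted p = 0.0324, edgeR). Bnip3, a mitophagy receptor, stood at 18.9 ± 2.22, 30.4 ± 19.9 and 109 ± 26.7 CPM (adjusted p = 0.0454, edgeR), in the opposite direction. Slc2a1, in the same control rats, stood at 141, 252 and 251 CPM with an adjusted p of 0.276 in edgeR. The Ldha adjusted p was 0.110 without day 1 control 1 and 0.0571 to 0.105 without each day 4 control rat in turn. Bnip3 was under the threshold in 7 of 24 alternatives, and its adjusted p was 0.116 in edgeR without day 1 control 1. Ndrg1 (852 FPKM) and Hif1a, the oxygen-regulated factor itself (46.1 FPKM), were the next most abundant and did not pass.

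Of the lists around sugar and urate handling, 0 members were called in any test. The sodium-glucose cotransporter list had 3 of 7 genes tested, Slc5a10 (4.04 FPKM), Slc5a2 (SGLT2, 2.87) and Slc5a9 (0.581), with Slc5a2 at or under 3 counts in 12 libraries. Of 6 glucose phosphorylation genes 2 were tested, Hk1 and Hk2; Hk1 averaged 36.0 FPKM and had a log2 difference of 0.83 (SE 0.23, adjusted p = 0.126, edgeR) over the average of days. All 4 polyol and fructose genes were tested; among them were Akr1b1, aldose reductase (85.0 FPKM), and Sord, sorbitol dehydrogenase (12.2). The urate list had 6 of 7 genes tested, led by Slc22a8 (7.58 FPKM), Slc22a6 (7.27) and Abcc4 (6.98). Slc22a6, Slc22a8 and Slc5a2 are proximal tubule markers as well, and each had its highest group mean at day 1 in water-loaded rats, the group that holds the library with 8420 CPM of those markers.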

How the data were processed

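Messenger RNA was read in 20 rats, 1 duct library each. The authors deposited raw whole-number counts for 32545 Ensembl genes. The submitters' processing notes list Trimmomatic 0.32, STAR 2.4.0.1, SAMtools and HTSeq, with build rn6; which annotation was used, and whether counting was stranded, is not given in the sources used. Per the labels' protocols, cDNA was amplified by a single-cell method. Rows without a gene (multi-mapped, ambiguous and the like) took 31.5% to 35.6% of the counts and were dropped. The FPKM deposited by the authors were the counts rescaled by length and depth, and served for levels between genes and for alternatives.

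The counts were tested with edgeR 4.0.16 (R 4.3.3): filterByExpr on group, TMM, and 1 robust quasi-likelihood fit of all 20 libraries with a mean per group. Water-loaded rats were contrasted with control rats on each day, over the equal-weight average, for a change of that difference between days, and control rats were contrasted across days. Adjusted p is Benjamini-Hochberg over 14472 genes, with a threshold of 0.05. Level is TMM-normalized CPM. Alternatives used DESeq2 1.42.0, limma 3.58.1 on log2 FPKM, other scalings and filters, covariates, a replicate block and each library left out. The code was tested on simulated data.

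Members and lists were chosen with earlier results of these data known. The rule named the 6 members, list members that were called, the 3 most abundant tested genes of each list with 3 or more, and the 3 genes most like each member with a mean of at least 10 CPM. Hk1, Hk2, the marker genes and the remaining family genes were named in addition; 1 gene that the rule names is not reported here. Numbers were read as pairing rats at day 2. There same-numbered libraries correlated in their deviations at 0.148, 0.147, 0.154 and 0.236, all over 0.1. At days 1 and 4 they did not. The labels name separate rats per group but not how the numbers were given.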

Additional observations from a re-analysis of the deposited data

Results flagged for a closer look

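Slc2a4 stood out because all 3 day 1 water-loaded rats lay below all day 1 control rats, while all 3 day 4 water-loaded rats lay above all day 4 control rats. The counts were 2, 0 and 1 against 5268, 480 and 867 at day 1, and 122, 244 and 283 against 0, 0 and 41 at day 4. The change of the difference between days was tested and had an adjusted p of 0.430 in edgeR. At day 2, 10 sets of 4 libraries were examined for a library far from the others by Dixon's ratio at its 95% critical value. On log2 CPM 0 were found. On CPM, a scale added after seeing the data, 3 were found: Slc2a1 in day 2 water-loaded 2 (0.836), Slc2a4 in day 2 control 2 (0.835) and Slc2a9 in day 2 water-loaded 3 (0.910, on 14 counts). Chance marks about 1 set in 20 where values are normally distributed. Whether CPM meets that was not examined, so its rate on this scale is not known.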

How the results depend on the processing

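Of the members' log2 differences recomputed under the alternatives, 582 kept their direction and their side of the threshold, 36 turned direction and 4 passed the threshold; of the counts of members called, 171 stayed within 1.5 times and 4 did not. DESeq2 called 3 members at day 1 and 1 over the average of days, against 0 in edgeR; the cause was not tested. For all genes its calls numbered 1132, 77 and 319 on days 1, 2 and 4, and 714 for the average, against 0, 0, 0 and 23. For the days among control rats, leaving out 1 library gave 0 to 1 members called; the 1 was Slc2a4, without day 2 control 2 or day 4 control 3. All-gene calls there, 355 in the report, ran from 43 (without day 1 control 1) to 563 with 1 library left out, and those of the average, 23 in the report, from 6 to 37; the average gave 5 with detected genes as a covariate or the replicate block. The days among control rats gave 185 with the 2 libraries of fewest detected genes set aside, an alternative chosen after seeing the data, as was library size without TMM, which moved the day 4 median of all genes to 0.23 and left 12 calls in the average.

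Slc2a8 at day 4, -0.02 in the report, turned to 0.0012 without a filter, 0.053 with a mean of 10 CPM, 0.29 on log2(FPKM + 1), 0.3 on log2(FPKM + 0.1), 0.035 with only the day's 2 groups, 0.61 with detected genes as a covariate, 0.0051 with 2 libraries set aside and 0.28 without TMM. Slc2a4 at day 2 turned to 0.46 and 1.41 on the 2 FPKM scales, 1 with the covariate and 0.031 without TMM. The covariate also gave Slc2a12 at day 4 -0.32, and over the average Slc2a1 0.00011 and Slc2a8 0.11. Slc2a1 at day 1 was -0.063 with 2 libraries set aside. The cause of these turns was not tested.

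With the replicate block 0 members were called in any comparison; turned directions were Slc2a4 at day 2, 1.91, and at day 4 Slc2a8, 0.033, Slc2a9, 0.2, and Slc2a12, -0.039. At days 1 and 4, same-numbered rats correlated at -0.059 to 0.060 and -0.091 to -0.004, so the samples share only a number there.

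Leaving out 1 library at a time, Slc2a8 at day 1 ran from -0.68 to 0.17 and at day 4 from -0.21 to 0.28, Slc2a4 at day 2 from -0.46 to 2.15, Slc2a12 at day 2 from -0.39 to 0.13 and at day 4 from -0.57 to 0.5, Slc2a1 at day 4 from -0.089 to 0.3, and Slc2a9 at day 4 from -7.4 to 2.1, the last without day 4 control 3. Where leaving out libraries left Slc2a9 with 0 counts in both groups of day 1, no value was possible. At 0 to 3 counts a group, the fitted sizes of Slc2a4 and Slc2a9 at day 1 carry no bound.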
